A study of Mus musculus with 6 samples.

Results

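A set of 8 S100 genes of epithelial and mesenchymal cells, S100a1, S100a4, S100a6, S100a10, S100a11, S100a13, S100a16 and S100g, was followed in whole mouse kidney after ischemia and reperfusion. They were chosen by gene symbol, and 8 of 8 were present among the 13026 genes of the deposited table. RNA had been sequenced from 6 kidney libraries, 3 of WT (LIGHT+/+) and 3 of LIGHT knockout (LIGHT-/-) adult male mice of C57BL/6 J background, and levels are in FPKM, fragment counts scaled to transcript length and library size. In all 6, the blood flow of both kidneys had been stopped for 32 min and restored for 24 h, so no uninjured kidney entered the comparison. LIGHT is a cytokine related to tumour necrosis factor. Its gene, Tnfsf14, was not analysed here, and the genotypes are therefore those of the labels. The sources used here do not say how the knockout allele was made, nor whether the libraries of a group come from separate animals. The p-values therefore describe only the spread among these libraries, which may be technical.

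S100 proteins are small proteins with a pair of EF-hand loops, most of which bind calcium, change shape and then dock on partner proteins such as annexins. In the kidney S100g, or calbindin-D9k, is a calcium carrier of the distal tubule, whereas S100a6, S100a10 and S100a11 are known from epithelia and from dividing or injured cells. S100a4, also called fibroblast-specific protein, marks mesenchymal cells and is made by leukocytes as well.

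By the GENCODE M21 annotation of GRCm38, the assembly also called mm10 and so named in the submitters' processing notes, the 7 S100a members lie on chromosome 3 and S100g lies on chromosome X. S100a1 (90511034 to 90514392, minus strand) and S100a13 (90514435 to 90524581, plus strand) stand head to head with 42 bases between them. S100a16 (90537254 to 90543151), S100a4 (90603771 to 90606045) and S100a6 (90612882 to 90624181) follow on the plus strand. S100a11 (93520488 to 93526287) and S100a10 (93555080 to 93564643), also on the plus strand, come 2.82 Mb beyond S100a9, after a stretch that holds the Sprr and other skin genes. S100g runs from 162961992 to 162964599 on the minus strand of chromosome X, inside the span of Ctps2 on the plus strand.

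The start-site sequences show how differently these genes begin, and are given because neighbours and non-neighbours are compared below. RefSeq windows of 300 bases (GRCm38.p6, 250 bases before the start and 50 after it) were found for 7 of the 8 members, all but S100a10. There were 8 windows in all, since S100a16 has a pair of starts. Sequences are on the strand of the gene, capitals mark matches to the motifs searched, and the base at the start is +1. The S100a11 stretch is chr3:93520246-93520495, that of S100a4 chr3:90603670-90603769 and that of S100g chrX:162964570-162964699. The last line is the 104 bases between the RefSeq starts of S100a1 and S100a13, chr3:90514331-90514434, on the strand of S100a13.
S100a11: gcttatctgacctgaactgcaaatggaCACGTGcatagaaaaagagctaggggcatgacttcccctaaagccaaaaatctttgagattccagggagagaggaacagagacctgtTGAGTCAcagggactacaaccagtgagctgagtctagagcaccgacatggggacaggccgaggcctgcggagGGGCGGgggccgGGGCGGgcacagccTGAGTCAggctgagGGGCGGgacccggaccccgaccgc
S100a4: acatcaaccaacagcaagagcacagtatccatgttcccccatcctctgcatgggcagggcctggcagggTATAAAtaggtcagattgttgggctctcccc
S100g: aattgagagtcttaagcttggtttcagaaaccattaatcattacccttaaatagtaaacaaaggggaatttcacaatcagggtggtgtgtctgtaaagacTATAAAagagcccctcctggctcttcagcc
S100a1-S100a13: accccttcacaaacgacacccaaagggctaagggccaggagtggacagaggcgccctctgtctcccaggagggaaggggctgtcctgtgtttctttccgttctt

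Motifs were searched on both strands, with overlapping matches allowed. They were the TATA box TATAAA, in 13.6% of all 32851 windows, the GC box GGGCGG in 35.7%, the AP-1 motif TGANTCA in 7.8%, the E-box CACGTG in 7.2% and the kappaB motif by its consensus in 4.5%. The window of S100a11 held 3 GC boxes, at -64, -52 and -24, AP-1 motifs at -136 and -38, and an E-box at -223. S100a4 had TATAAA at -31, and in S100g the same letters began at the annotated start itself, +1. The windows of S100a1 and S100a13 held none of the motifs, S100a6 had an E-box at +15, and the second start of S100a16 had an AP-1 motif at -192 and a GC box at -30. No member window matched the kappaB consensus, and S100a10 had no window to search. GC content was 61.7% in the S100a11 window and 41.0% in that of S100g, against a median of 52.7% over all windows. A match is a description of these letters only.

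Transcripts of the 8 genes covered a wide range of levels, and their order was much the same in every library. S100a11, a partner of annexin A1 found in most epithelia, was the highest of the 8 in all 6 libraries and ranked 30 of 13026 genes by its mean FPKM. Its level was 616, 568 and 703 FPKM in the WT libraries and 584, 478 and 337 FPKM in the knockout libraries. S100g, S100a10 and S100a1 came next in every library, in an order that varied. S100g stood at 289, 346 and 212 FPKM in WT and at 303, 322 and 316 FPKM in knockout. S100a10 stood at 286, 251 and 264 FPKM in WT and at 258, 231 and 101 FPKM in knockout.

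S100a1 stood at 218, 206 and 229 FPKM in WT and at 204, 173 and 169 FPKM in knockout. In WT the levels of S100g and S100a10 overlapped, while all 3 WT values of S100a10 were above those of S100a1. In knockout S100g was above S100a10 in 3 of 3 libraries, and S100a10 and S100a1 overlapped. S100a6 followed these 4 in every library, at 68.5, 89.3 and 125 FPKM in WT and 75.4, 74.9 and 84.2 FPKM in knockout.

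S100a13 and S100a16 changed places between libraries and overlapped in both genotypes. S100a13 stood at 28.7, 30.8 and 36.3 FPKM in WT and at 29.0, 33.8 and 25.4 FPKM in knockout. S100a16 stood at 34.6, 33.9 and 31.03 FPKM in WT and at 29.7, 32.3 and 18.1 FPKM in knockout. S100a4 was the lowest of the 8 in all 6 libraries, at 13.7, 13.2 and 23.0 FPKM in WT and 9.16, 10.7 and 15.6 FPKM in knockout. Even so, it was above 59.8 to 81.2% of the genes of the table, depending on the library.

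**Figure D1:**
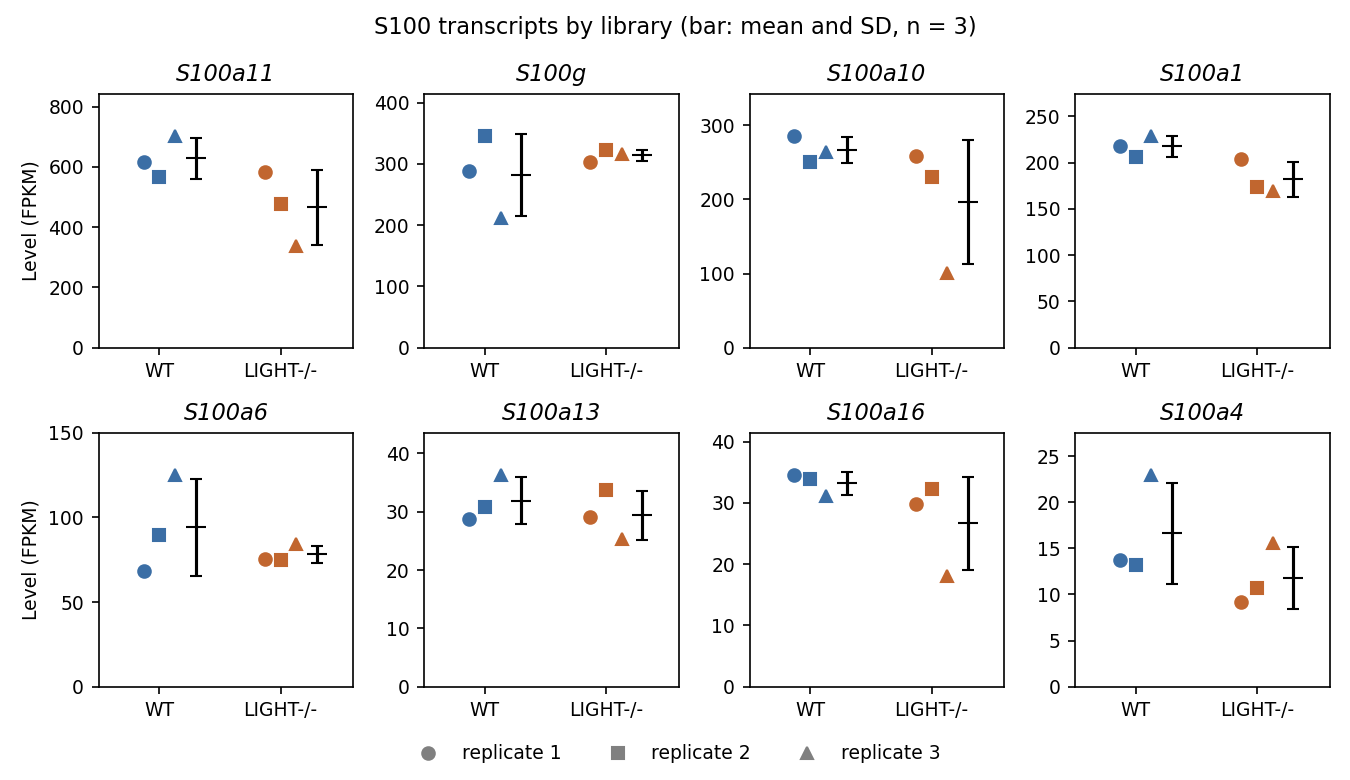
Level in FPKM (vertical axes from 0, a different scale for each gene) of the 8 S100 genes in the 3 WT and 3 LIGHT knockout libraries, with symbols for the replicate number and a bar for the mean and SD (n = 3). Only for S100a1 do all knockout points lie below all WT points, and knockout replicate 3 is far below the others for S100a10 (101 FPKM) and S100a16 (18.1 FPKM).

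The comparison asked how these transcripts differed between kidneys with and without LIGHT at this time after injury. Of the 8 members, 7 had a lower and 1 a higher average in the knockout, but no member passed the test. In limma, with adjustment over the 12836 genes tested, 0 of 8 members had an adjusted p under 0.05, and 0.117% of all genes did. The adjusted p of the members was 0.592 to 0.791. At an unadjusted p under 0.05 there was 1 of 8 members, S100a1, against 8.08% of all genes in either direction and 3.74% that were lower. Values did not overlap between genotypes for 1 of 8, again S100a1, against 16.6% of all genes in either direction and 8.8% that were lower. The median log2 difference (knockout minus WT, of FPKM + 1) was -0.30 over the members and -0.01 over all genes tested, of which 52.1% were lower. Without knockout library 3 the median of the members was -0.17. In bulk tissue, fewer cells of a type and less RNA per cell cannot be told apart.

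**Figure D2:**
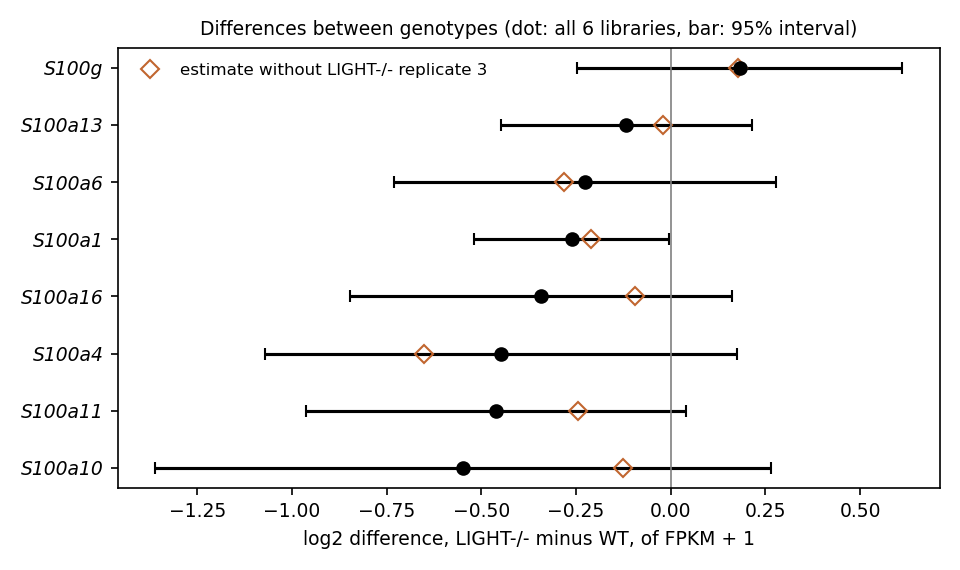
Difference in log2(FPKM + 1) between LIGHT knockout and WT for each of the 8 genes (horizontal axis), as the limma estimate with its 95% interval (dots and bars, 3 libraries a group), and the estimate without knockout replicate 3 (diamonds). Every interval except that of S100a1 spans 0, and the estimate for S100a10 moves from -0.55 to -0.13 without that library.

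Of the annexin-binding members, S100a10 and S100a11 were lower on average in the knockout, by log2 differences that shrank by over 1.5 times without knockout library 3. S100a10, also called p11, whose EF-hands no longer bind calcium, forms a tetramer with annexin A2 at membranes. Its mean was 267 ± 17.6 FPKM in WT and 197 ± 83.9 in knockout (SD, n = 3 each), 1.36-fold lower. Its log2 difference was -0.55 ± 0.34 (SE, 95% interval -1.36 to 0.26, limma adjusted p = 0.640). Without knockout library 3 the log2 difference was -0.13.

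Anxa2, the partner of S100a10, stood at 104, 101 and 145 FPKM in WT and 94.5, 99.9 and 48.8 FPKM in knockout, so it too was lowest in knockout library 3. The ratio of S100a10 to Anxa2 in FPKM was 2.76, 2.48 and 1.82 in WT and 2.73, 2.31 and 2.07 in knockout. The ratios of the genotypes overlapped, with means of 2.35 ± 0.485 and 2.37 ± 0.335 (SD, n = 3 each). Thus the transcripts of the tetramer's subunits were both low in the same library, while their proportion there lay within the range of the others.

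S100a11 averaged 629 ± 68.7 FPKM in WT and 466 ± 124 in knockout (SD, n = 3 each), 1.35-fold lower. The log2 difference was -0.46 ± 0.21 (SE, 95% interval -0.96 to 0.04, limma adjusted p = 0.595) and -0.25 without knockout library 3. Knockout libraries 2 and 3 were below all WT libraries and knockout library 1 was not. Of its 31-base words, 48.9% occur in transcripts of other genes, the most (47.0%) in Gm12854, and none of these genes is in the table, so its level is uncertain to that extent. Anxa1, its best known partner, stood at 10.9, 27.0 and 29.7 FPKM in WT and 13.1, 13.7 and 13.96 FPKM in knockout.

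S100a6, or calcyclin, is a calcium sensor of dividing cells that binds annexin A11 and CacyBP. It averaged 94.3 ± 28.7 FPKM in WT and 78.2 ± 5.27 in knockout (SD, n = 3 each). The log2 difference was -0.23 ± 0.21 (SE, limma adjusted p = 0.733). Here WT library 3 was the high value, and without it the log2 difference was -0.0039. It was -0.43 without WT library 1, which held the lowest level of the 6. Anxa11 averaged 18.3 ± 0.832 FPKM in WT and 18.5 ± 2.37 in knockout, Anxa6 averaged 37.0 ± 5.13 and 37.5 ± 5.65, and Anxa5 128 ± 15.1 and 109.6 ± 19.0.

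Of 12 annexins listed, 11 were tested, 7 lower and 4 higher, with a median log2 difference of -0.23, and none passed in limma. At an unadjusted p under 0.05 there was 1 of 11, against 8.08% of all genes in either direction. That was Anxa3, at 50.4, 52.8 and 53.8 FPKM in WT and 39.0, 29.5 and 10.6 FPKM in knockout. Anxa4, the annexin with the next smallest p, averaged 37.2 ± 1.67 and 30.5 ± 5.74 FPKM (SD, n = 3 each). Anxa2, Anxa3 and Anxa4 did not overlap between the genotypes, and their adjusted p in limma was 0.605, 0.592 and 0.598. Of all genes, 16.6% did not overlap in either direction, and 8.8% were lower without overlap.

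S100a1, a regulator of calcium release channels and calcium pumps best known from heart muscle, was the member with the smallest p. Its average was 218 ± 11.4 FPKM in WT and 182 ± 18.9 in knockout (SD, n = 3 each), 1.197-fold lower, and it was lower in 3 of 3 knockout libraries. The log2 difference was -0.26 ± 0.11 (SE, 95% interval -0.52 to -0.0048), with an unadjusted p of 0.0469 and an adjusted p of 0.592 in limma. It was between -0.34 and -0.21 when each library was left out in turn, the narrowest range among the 8. Over the alternatives of the closing section, its unadjusted limma p ran from 0.0098 (array weights) to 0.131 (without knockout library 2). With the same FPKM sum in each library that p was 0.0599. Wherever it was above 0.05 the 95% interval spanned 0. With 3 libraries a group, the smallest two-sided p of an exact permutation test is 0.1. Atp2a2, the calcium pump that S100a1 binds, averaged 69.3 ± 5.45 FPKM in WT and 77.2 ± 9.67 in knockout.

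S100a13, which carries fibroblast growth factor 1 out of cells by a route without a signal peptide, starts next to S100a1 on the sequence printed above. It averaged 31.9 ± 3.95 FPKM in WT and 29.4 ± 4.22 in knockout (SD, n = 3 each). The log2 difference was -0.12 ± 0.14 (SE, 95% interval -0.45 to 0.21, limma adjusted p = 0.791). That was the smallest difference among the 8. The estimate was -0.02 without knockout library 3 and also without WT library 3, and it was -0.19 without WT library 1 and -0.22 without knockout library 2. S100a1 was 7.60, 6.70 and 6.30 times as high as S100a13 in WT and 7.01, 5.13 and 6.66 times as high in knockout. Its cargo Fgf1 averaged 40.4 ± 3.804 FPKM in WT and 41.6 ± 8.40 in knockout.

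S100a16, a widely expressed member of the family, averaged 33.2 ± 1.87 FPKM in WT and 26.7 ± 7.60 in knockout (SD, n = 3 each). Its log2 difference was -0.34 ± 0.21 (SE, 95% interval -0.85 to 0.16, limma adjusted p = 0.640). Knockout library 3 alone was far below the rest, and without it the log2 difference was -0.09.

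S100a4 binds the heavy chain of non-muscle myosin IIA and loosens its filaments. It averaged 16.6 ± 5.51 FPKM in WT and 11.8 ± 3.37 in knockout (SD, n = 3 each), 1.41-fold lower. The log2 difference was -0.45 ± 0.26 (SE, 95% interval -1.07 to 0.18, limma adjusted p = 0.627). It was -0.65 without knockout library 3, -0.20 without WT library 3 and -0.30 without knockout library 1. Thus S100a4 ran opposite to S100a10 in knockout library 3, where it was the highest of the knockout values. A model, Gm42674, overlaps S100a4 on the same strand and shares 49.2% of its 31-base words, so part of the level may belong to that transcript. Myh9, the myosin chain, averaged 77.7 ± 7.79 FPKM in WT and 70.4 ± 24.7 in knockout.

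Fibroblast and mesenchymal markers were read beside S100a4. Of 15 listed and tested, 9 were lower and 6 higher, with a median log2 difference of -0.06, and none passed in limma. At an unadjusted p under 0.05 there were 3 of 15, all lower, against 3.74% of all genes that were lower, and 4 of 15 did not overlap between the genotypes, against 16.6% of all genes. Those at an unadjusted p under 0.05 were Tagln, Vim and Acta2, which belong to contractile and migrating cells. Without overlap were the same genes and Sparc, at 137, 142 and 186 FPKM in WT and 129, 126 and 86.5 FPKM in knockout. Vim, the intermediate filament gene of mesenchyme, stood at 24.7, 32.1 and 49.1 FPKM in WT and 20.0, 24.2 and 18.0 FPKM in knockout. Tagln averaged 151 ± 64.2 and 66.9 ± 21.4 FPKM and Acta2 93.3 ± 41.8 and 51.6 ± 2.49 (SD, n = 3 each). Col1a1, the collagen of fibroblasts, averaged 24.6 ± 7.77 and 20.4 ± 3.21 FPKM. Among the 6 higher genes, Dcn, Lum and Thy1 had the largest log2 differences, at 0.68, 0.65 and 0.39. Each overlapped between the genotypes. Dcn stood at 7.77, 6.94 and 10.4 FPKM in WT and 7.39, 12.3 and 28.1 FPKM in knockout. Among knockout libraries, Dcn, Lum and Thy1 were highest in library 3, as was S100a4, whereas Tagln, Vim, Acta2 and Sparc were lowest there. The summed level of the list was 407 to 747 FPKM in WT and 326 to 415 FPKM in knockout, and its part in the level of S100a4 was not tested.

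Leukocytes also make S100a4, and their markers spanned a wide range of levels, from 0 to 1.06 FPKM for Cd3g of T cells to 35.8 to 107 FPKM for Cd74. Of 12 listed, 9 were in the table and 8 were tested, 5 lower and 3 higher, and none passed in limma. At an unadjusted p under 0.05 there were 2 of 8, against 8.08% of all genes in either direction. Ptprc, the marker of all leukocytes, averaged 1.21 ± 0.371 FPKM in WT and 1.07 ± 0.251 in knockout. Itgam averaged 4.27 ± 1.61 and 1.96 ± 0.284 FPKM, Cd68 16.4 ± 3.29 and 12.2 ± 1.17, and Lyz2 71.1 ± 39.1 and 38.7 ± 9.89 (SD, n = 3 each). Cd74, the invariant chain of antigen-presenting cells, averaged 53.2 ± 16.3 and 66.8 ± 35.2 FPKM, and Cd14, a receptor of myeloid cells, 21.9 ± 2.19 and 17.7 ± 9.62. Lyz2, Cd74, Cd14 and Cd68 were on average above S100a4 over the 6 libraries. Cd3e, Cd79a and Ly6g were not analysed here. The sum over the list was 142 to 233 FPKM in WT and 126 to 195 FPKM in knockout. It was highest in replicate 3 of each genotype, as was S100a4. Cd74 was the largest term in knockout library 3, at 107 FPKM, against 41.9 and 51.3 FPKM in knockout libraries 1 and 2. Cd14 and Itgam were lowest in knockout library 3. Among knockout libraries, Ptprc, Adgre1, Csf1r, Lyz2 and Cd3g were highest there. The part of these markers in S100a4 was not tested.

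S100g was the only member with a higher average in the knockout. It averaged 282 ± 67.3 FPKM in WT and 314 ± 9.47 in knockout (SD, n = 3 each). The log2 difference was 0.18 ± 0.18 (SE, 95% interval -0.25 to 0.61, limma adjusted p = 0.747). Its 3 knockout values lay between 303 and 322 FPKM, inside the WT range of 212 to 346. The estimate was 0.34 without WT library 2 and reversed to -0.01 without WT library 3. Ctps2, on the opposite strand over S100g and named here for that overlap, averaged 10.1 ± 0.966 and 9.68 ± 0.962 FPKM, far below S100g. The sources used here do not say whether counting used the strand.

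S100g carries calcium between its apical entry and its basolateral exit. A fixed list of renal calcium genes, wider than that route, was read beside it. Of 15 genes of renal calcium transport tested, 11 were higher and 4 lower, with a median log2 difference of 0.23. The lower genes were Cyp27b1, Klk1, Cyp24a1 and Atp2b4, with log2 differences of -1.32, -0.38, -0.11 and -0.08. Cyp27b1 varied widely in WT, at 0.990, 19.7 and 8.44 FPKM, and stood at 2.15, 1.57 and 2.10 FPKM in knockout. Of the higher genes, Calb1, Casr, Pvalb and Slc8a1 were above their WT mean of log2(FPKM + 1) only in knockout library 3. Pth1r, Vdr, Rxra and Trpv5 were above it in every knockout library. None of the 15 passed in limma. At an unadjusted p under 0.05 there were 2 of 15, both higher, against 8.08% of all genes in either direction. Those were Pth1r, the parathyroid hormone receptor, at 125 ± 20.8 FPKM in WT and 170 ± 15.9 in knockout, and Vdr, the vitamin D receptor, at 21.7 ± 6.26 and 33.8 ± 9.62 (SD, n = 3 each; limma adjusted p = 0.592 for each). Trpv5, the apical channel of the distal tubule, stood at 9.13, 6.33 and 4.30 FPKM in WT and at 13.1, 15.5 and 6.47 FPKM in knockout. Trpv6, the related channel, averaged 1.15 ± 0.0587 and 1.62 ± 0.793 FPKM.

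Calb1, the larger calbindin of the same cells, varied far more than S100g. It stood at 12.8, 22.5 and 10.8 FPKM in WT and 11.7, 9.59 and 59.3 FPKM in knockout. S100g was 22.5, 15.3 and 19.5 times as high as Calb1 in WT, and 25.9, 33.6 and 5.32 times as high in knockout. So the high Calb1 level of knockout library 3 had no counterpart in S100g. The exit proteins Atp2b1 and Slc8a1, a calcium pump and a sodium-calcium exchanger, averaged 23.8 ± 1.94 and 25.0 ± 2.41 FPKM, and 3.83 ± 1.01 and 5.78 ± 4.51 (WT, then knockout).

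Among the remaining S100 genes, the neutrophil pair S100a8 and S100a9 had larger differences than any of the 8 members, and neither passed. S100a8 stood at 20.0, 25.8 and 31.5 FPKM in WT and 14.3, 20.7 and 5.22 FPKM in knockout (limma adjusted p = 0.592). S100a9 stood at 35.3, 40.2 and 47.7 FPKM in WT and 23.8, 34.6 and 12.9 FPKM in knockout (limma adjusted p = 0.592). S100a14, an epithelial member that lies between S100a13 and S100a16, stood at 0.444, 2.90 and 2.80 FPKM in WT and 1.79, 1.11 and 1.98 FPKM in knockout. S100z was listed at 0 in all WT libraries and in knockout library 1 and at 0.643 and 1.05 FPKM in the others, and fell under the minimum mean. S100a2, S100a3, S100a5, S100a7a and S100b were not analysed here.

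Receptors for released S100 proteins were near the lower limit of the table. Ager, the receptor for advanced glycation end products, averaged 0.606 ± 0.122 FPKM in WT and 0.468 ± 0.0144 in knockout, and Tlr4 averaged 1.91 ± 1.22 and 1.43 ± 0.776 (SD, n = 3 each). Of 24 binding partners and receptors listed, 19 were tested, 13 lower and 6 higher, with a median log2 difference of -0.05. None passed in limma, and 1 of 19 had an unadjusted p under 0.05, against 8.08% of all genes in either direction. That was Mdm2, a ubiquitin ligase, at 12.6 ± 0.818 and 10.4 ± 0.729 FPKM. Cacybp, the S100a6 binding protein, averaged 37.1 ± 3.43 and 36.9 ± 0.909 FPKM. Ahnak, a scaffold that the S100a10 and annexin A2 tetramer holds at the membrane, averaged 30.7 ± 7.09 and 25.5 ± 2.78 FPKM.

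Profiles over the 6 libraries differed among the members, with some traits shared. Knockout library 3 held the lowest level in 5 of 8 members, S100a1, S100a10, S100a11, S100a13 and S100a16, and in 30.3% of all genes tested. S100a4 and S100a6 had their highest level in WT library 3, as did S100a1, S100a11 and S100a13, and S100g had its lowest there. The root mean square difference between centred log2 profiles was smallest for S100a1 with S100a13, at 0.172, and for S100a11 with S100a16, at 0.188. It was largest for S100a4 with S100a10, at 0.684. This measure is not a correlation and is small wherever both genes vary little. In knockout library 2, for example, S100a1 was at -0.33 and S100a13 at 0.09 relative to their WT means of log2(FPKM + 1). S100a10 and S100a11, which are separated by 28792 bases, differed by 0.232, as did S100a4 and S100a6, which are separated by 6836 bases. Summed over the 8 genes, the level was 1554, 1537 and 1623 FPKM in WT and 1492, 1355 and 1066 FPKM in knockout. It was lower in every knockout library than in any WT library, as were 8.8% of single genes tested. S100a11, the largest term, overlapped between the genotypes by itself.

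**Figure D3:**
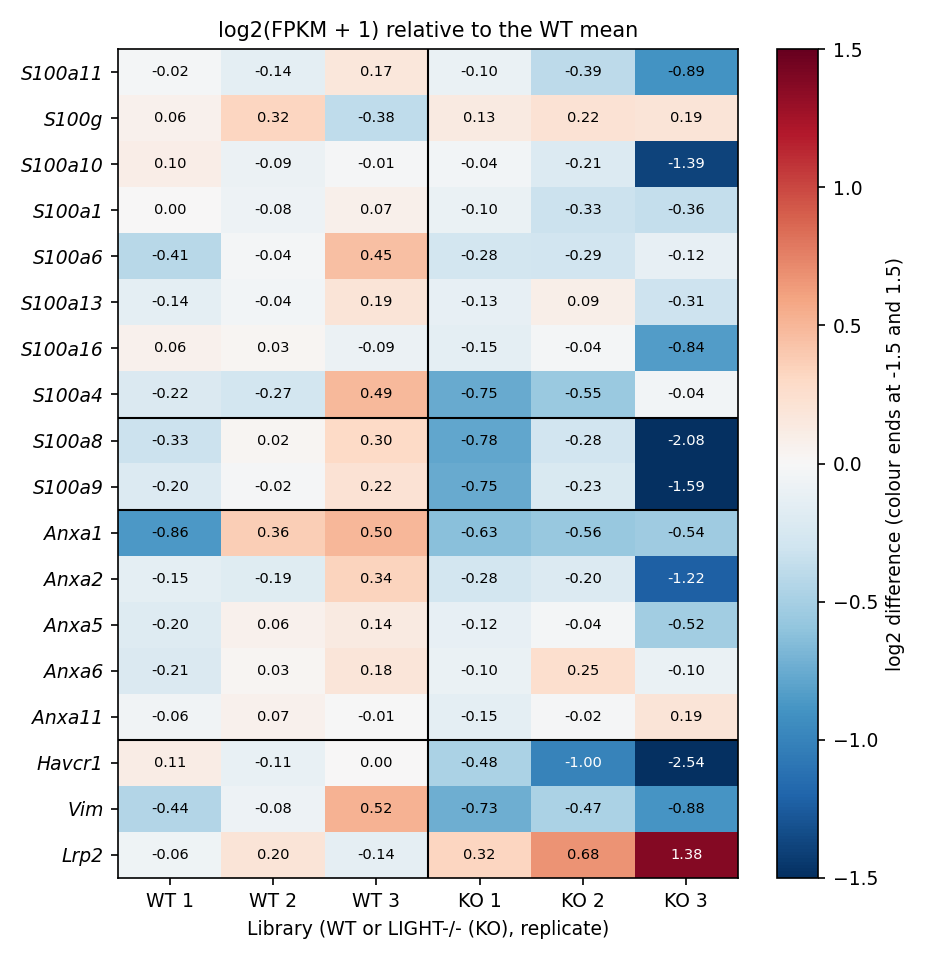
Level of each gene in each library as log2(FPKM + 1) minus the WT mean (colour and printed value), for the 8 S100 genes in order of level, the neutrophil pair, 5 annexins, and Havcr1, Vim and Lrp2. Knockout replicate 3 holds -1.39 for S100a10 and -0.89 for S100a11 but -0.04 for S100a4 and 0.19 for S100g.

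Knockout library 3 stood apart from the rest across all genes. The Pearson correlation of log2(FPKM + 1) with other libraries was 0.935 to 0.957 for it and 0.976 to 0.989 among the other 5. FPKM summed to 299667 to 318493 per library, and the number of reads is unknown. Kidney markers were present, with all 9 proximal tubule markers tested. All 9 were higher in the knockout and none passed in limma. Of them 8 had an unadjusted p under 0.05, against 8.08% of all genes in either direction. Their sum was 690 to 833 FPKM in WT and 1018 to 1886 FPKM in knockout, highest in library 3. Of 14 tubular injury markers, 12 were lower and 2 higher and none passed (1 at an unadjusted p under 0.05, beside the same 8.08%). Their sum was 6407 to 7290 FPKM in WT and 1974 to 6627 FPKM in knockout, lowest in library 3. Havcr1, kidney injury molecule 1, averaged 833 ± 62.6 FPKM in WT and 385 ± 228 in knockout (SD, n = 3 each). Of 10 distal nephron and collecting duct markers, 7 were higher and 3 lower. Of 6 endothelial markers, 3 were higher and 3 lower. Of 5 podocyte markers, 1 was higher and 4 lower. None of these 3 lists held a gene that passed in limma (0, 0 and 1 at an unadjusted p under 0.05, beside 8.08% of all genes). The part of these tubular levels in the low S100a10, S100a11 and S100a16 values of library 3 was not tested.

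Along chromosome 3, the 10 S100 genes in the table were all lower on average in the knockout, against 52.1% of all genes tested. Without knockout library 3 the log2 differences of S100a13 and S100a16 were -0.02 and -0.09. That of S100a14 was -0.10 ± 0.39 (SE) over all libraries. The 10 genes lie within 3.05 Mb, a span that holds 20 genes of the table. Of the other genes tested there, Sprr2a1, Sprr2a2, Sprr2a3, Sprr1a and Tchh were higher on average. Sprr2f, Gm9774, Crct1 and Tchhl1 were lower. The nearest gene of the table before S100a1 is Chtop, an RNA export factor, with a log2 difference of -0.03 ± 0.11 (SE). Tchhl1, a gene of the S100 fused-type family that lies before S100a11, averaged 5.09 FPKM in WT and 2.27 in knockout, with a log2 difference of -0.91 ± 0.20 (SE, limma adjusted p = 0.592). The nearest gene of the table after S100a10 is Them4, at -0.04 ± 0.12.

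**Figure D4:**
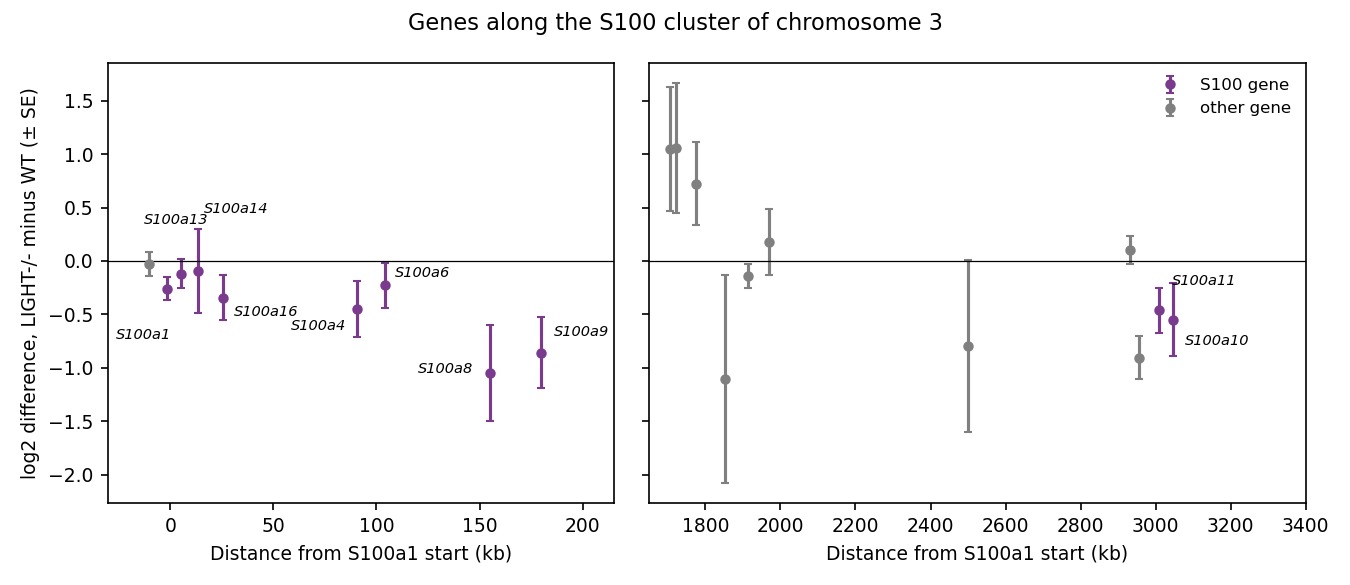
Difference in log2(FPKM + 1) between LIGHT knockout and WT (vertical axis, with SE from limma) against the distance from the S100a1 start in kb (horizontal axis, in a pair of panels with the empty stretch left out), for the S100 genes, Chtop and the other tested genes of the table between them. The S100 points lie below 0, between -0.10 for S100a14 and -1.05 for S100a8, while other genes lie on both sides of 0.

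Genes whose profiles were most like those of the members were sought among 7707 other genes averaging 5 FPKM or more, by the same root mean square difference over 6 libraries. For S100a10 these were Eif6, at 76.3, 63.1 and 62.3 FPKM in WT and 62.6, 56.6 and 25.5 FPKM in knockout (difference 0.0569), and Pold4 (0.0582). For S100a11 they were Ifngr2 (0.0603) and the model Gm6169 (0.0679), and for S100a16 Cmss1 (0.0590) and Mybbp1a (0.0631). S100a1 was nearest to Rps29 (0.0240) and Nelfcd (0.0270), and S100a13 to Tmem165 (0.0145) and Atf4 (0.0158). S100a4 was nearest to Cd53 (0.127) and Ctss (0.143), and S100a6 to Kirrel (0.0641) and Mmd (0.0836). S100g was nearest to Urgcp (0.0273) and Habp2 (0.0695). No gene searched came as close to S100a4 as the nearest gene did to each other member.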

How the data were processed

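The authors deposited gene levels in FPKM. Per the submitters' processing notes, the tools were FastQC, HISAT2 and StringTie and the build was mm10; the sources used here give no versions, annotation or strand setting. The 6 library files were identical to their columns in the table of all libraries. In every row the higher group mean was at least 0.50043 FPKM. Groups came from the sample titles. Genes averaging 0.5 FPKM or more were kept (12836, 190 removed) and log2(FPKM + 1) was compared in limma 3.58.1 (R 4.3.3) with a mean-variance trend, two-sided, with Benjamini-Hochberg adjustment over all genes kept and a threshold of 0.05. Differences on this scale understate those of low genes. FPKM hold no counts, so no count model or counting interval was used. The fit was tested on simulated data. GENCODE M21 matched 13005 of 13026 identifiers. The members and lists were chosen with earlier results of these data known. Planned names were the members, other S100 genes, known partners, and some calcium transport genes and cell markers. Also planned were the 3 genes of smallest p in a list, genomic neighbours and the nearest profiles. Atp2a2, Fgf1, Myh9, Cacybp, Ahnak, Tlr4, Cd74, Cd14, Cd3g and Ctps2 were added after their values had been seen. So were Sparc, Casr, Pvalb, Rxra, Adgre1, Csf1r, Dcn, Lum, Thy1, Cyp27b1, Klk1, Cyp24a1 and Atp2b4. The alternatives are given in the closing section.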

Additional observations from a re-analysis of the deposited data

How the results depend on the processing

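Over 17 alternatives (pseudocounts, filters, scalings, variance models, array weights, the replicate block and leaving out each library), no member was called, and the lowest limma adjusted p of a member was 0.141, for S100a1 with array weights. Of 136 member estimates, 134 kept the direction. S100a13 was 0.0756 with array weights, and S100g ranged from -0.0107 (without WT library 3) to 0.34 when each library was left out. The cause was not tested. The 15 genes called over all genes were 52 with array weights, 0 with the replicate block, and 0 to 11 when each library was left out, with 0 without WT library 1, without WT library 3 or without knockout library 2, 6 without WT library 2 and 7 without knockout library 1. The median of the members was -0.17 without knockout library 3, -0.21 without WT library 3 and -0.22 with array weights. The replicate numbers share no stated pairing: same-numbered libraries correlated at 0.146, -0.133 and -0.019 in their deviations from the group means, so the block compares numbers only. Depth is unknown, so no limit of detection was set.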

Other observations

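Between S100a9 and S100a11 on chromosome 3 the table holds genes of the skin barrier, named here for their position. Sprr2f, a small proline-rich protein of stressed epithelia, stood at 17.3, 29.5 and 27.2 FPKM in WT and 21.5, 31.9 and 1.15 FPKM in knockout. Crct1, an epidermal gene, stood at 8.57, 5.34 and 6.96 FPKM in WT and 4.92, 12.2 and 0.191 FPKM in knockout. Sprr2a1, of a family of close copies, stood at 0.586, 1.03 and 1.91 FPKM in WT and 2.29, 1.27 and 10.2 FPKM in knockout. Sprr1a, another proline-rich gene, stood at 92.3, 56.5 and 72.7 FPKM in WT and 67.3, 130 and 63.3 FPKM in knockout. In knockout library 3, Sprr2f and Crct1 were thus at their lowest, as S100a10 and S100a11 were, and Sprr2a1 was at its highest. None passed in limma (adjusted p between 0.615 and 0.853).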
